A study of Rattus norvegicus with 6 samples.

Results

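The genes described here are the 30 that carry glucose into the islet cell, break it down to pyruvate and pass its electrons and carbon to the mitochondria: glucose transporters, glycolytic enzymes, lactate handling, pyruvate entry, the redox shuttles and the glucose-responsive gene Txnip. They were listed by name for their place in the pathway, by a rule that uses no measured value. The list was made with earlier results of these data known. The transcript sheet holds 28656 gene names, and 28 of the 30 genes were found among them. Of these 28, 27 reached 1 abundance unit in 3 or more of the 6 libraries and were tested, and Hk2 stayed under that limit. Gapdh was not analysed here, and Pcx, which the sheet lists as Pc, is given beside the others and was not counted.

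The libraries came from pancreatic islet cells of male Wistar rats aged 12 weeks. Islets were dispersed to single cells, which were transfected by lipofection with a gapmeR against ci-Ins2 (3 libraries) or a control gapmeR (3 libraries), and RNA was taken 48 h later. All 6 libraries therefore carry a transfected oligonucleotide, and an untransfected group was not analysed here. ci-Ins2 is a circular RNA from the insulin 2 gene that holds intron sequence, and a gapmeR is a short antisense oligonucleotide with locked bases that directs cleavage of its target RNA. The comparison asks which messenger RNAs differ when this circular RNA is targeted. The circular RNA itself is not measured by annotated transcripts in these libraries, so the labels could not be checked against its level. Libraries with the same replicate number came from cells of 1 animal. Whole islet cells were used, so β-cells are mixed with the other islet cells, and fewer cells of a type cannot be told apart from less RNA per cell. The sequences of the pair of oligonucleotides are shown because they are the only difference between the groups in the labels, and neither has capitals.
ci-Ins2 gapmeR: gcttacagacacatag
control gapmeR: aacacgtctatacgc

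In the β-cell, glucose enters through a high-capacity transporter, is phosphorylated and passes through glycolysis to pyruvate, which the mitochondria oxidize. Electrons of cytosolic NADH follow by the glycerol phosphate and malate-aspartate shuttles. The ATP that results closes potassium channels, the membrane depolarizes, and calcium entry releases insulin. β-cells are also known for keeping a few widely used genes low, among them those for lactate dehydrogenase A, the lactate carrier of Slc16a1 and the high-affinity hexokinases.

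Values are abundance units, relative to transcript length, with the same sum in every library before scaling, so that levels of different genes can be set side by side. They are not read counts, and the depth behind them is unknown. In 13927 genes tested with limma on log2(value + 1), 488 were called lower in ci-Ins2 libraries and 141 higher at an adjusted p under 0.05. Of the called genes 77.6% were lower, against 67.0% without scaling. With the animal as a block, 1428 were lower and 729 higher, with 66.2% lower, and without scaling 44.1%. The cells expressed β-cell markers strongly, with a summed level of 176200 to 181300 units in ci-Ins2 libraries and 181500 to 189400 in control libraries, and no marker list had a gene at 0 in every library. Markers of other cell types differed between the groups in part. Of the ductal markers, 3 of 5 tested (Krt19, Krt18 and Krt7) were higher without the block, with sums of 944.5 to 1034 units in ci-Ins2 and 800.2 to 854 in control libraries, and all 3 calls were lost in at least 2 of the 6 fits without a library. All 10 macrophage markers tested had negative fold changes, none called without the block and 4 with it, with sums of 33.19 to 72.47 units in ci-Ins2 and 52.06 to 94.12 in control libraries. All 9 stromal markers were also negative, none called without the block and 3 with it, with sums of 251 to 682.8 units in ci-Ins2 and 349.2 to 807 in control libraries. With the block, 1 of 4 delta and PP markers and 2 of 6 alpha markers were higher, and 1 of 5 acinar and 1 of 7 endothelial markers were lower, and 2 of 8 β-cell markers were higher. The delta and PP sum was higher in ci-Ins2 in all 3 animals, with 4865, 3753 and 4228 units in ci-Ins2 libraries, against 4433, 3507 and 3293 in control libraries. The alpha sum was lower in ci-Ins2 in all 3 animals. It was 24160, 20650 and 27500 units in ci-Ins2 libraries, against 26410, 22780 and 28130 in control libraries. The β-cell sum was also the lower one in ci-Ins2 in all 3 animals, and 6 of the 8 β-cell markers had negative fold changes and 2 positive ones. The part of these cells in the results below was not tested.

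Of the 27 members tested, 1 fell in ci-Ins2 libraries (Pfkp) and 1 rose (Gpd2), and 25 passed in neither direction. This is 7.41% of the members, against a background of 4.52% of all genes called in either direction (3.50% lower and 1.01% higher). At an unadjusted p under 0.05 there were 6 members, against 20.5% of all genes. With the animal as a block, 4 were lower (Pfkp, Eno1, Slc2a1 and Aldoa) and 3 higher (Gpd2, Me1 and Txnip), 25.9% of the members against a background of 15.5% (10.3% lower and 5.23% higher). The median fold change of the members was -0.04 on the log2 scale, against 0.002 over all genes, and their median absolute fold change was 0.109 against 0.105. The groups did not overlap in 8 members, 6 lower and 2 higher, 29.6% against 26.8% of all genes. In 13 members the ci-Ins2 value was the lower one in all 3 animals and in 8 the higher one, together 77.8% against 55.7%. Without scaling under the block, an alternative chosen after the data were seen, Aldoa was not called and Pfkm and Pkm were, which gave 3 lower and 5 higher, against a background of 8.06% lower and 10.2% higher.

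Of the glucose transporter genes, Slc2a2 encodes GLUT2, the main glucose transporter of rodent β-cells. Slc2a2 had 2468, 2594 and 2639 units in ci-Ins2 libraries, against 2614.5, 2623 and 2678 in control libraries. It was the most abundant member and the 18th most abundant gene of those tested, and the groups overlapped. Its fold change was -0.04 ± 0.05 on the log2 scale (SE), with an interval of -0.17 to 0.09 (95%), and its sign turned without scaling.

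Slc2a1, which encodes the high-affinity transporter GLUT1, had 23.6, 25.8 and 22.4 units in ci-Ins2 libraries, against 29.4, 30.3 and 26.2 in control libraries. Every ci-Ins2 value lay under every control value. The fold change was -0.25 ± 0.08 (SE), with an adjusted p of 0.138 without the block and 0.0224 with it. The blocked call was kept in 1 of 3 fits without an animal, and the adjusted p was 0.119 without animal 1. In both groups Slc2a1 was highest in animal 2 and lowest in animal 3, as were the summed stromal markers (342.3, 682.8 and 251 units in ci-Ins2 libraries, against 486.8, 807 and 349.2 in control libraries), whose part in the difference was not tested. GLUT1 made up 0.92% ± 0.07 of the 2 transporters' summed level in ci-Ins2 libraries and 1.07% ± 0.09 in control libraries (SD, n = 3 each). These shares overlapped (exact permutation p = 0.2, without pairing by animal), and the ci-Ins2 share was the lower one in 3 of 3 animals.

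Hexokinase genes were near or under the filter at 1 unit. Hk1 had 0.833 to 2.08 units in ci-Ins2 libraries and 1.18 to 2.1 in control libraries, and Hk2 had 0.26 to 0.452 in ci-Ins2 libraries and 0.41 to 0.582 in control libraries. Hk1 had a fold change of -0.19 with an interval of -0.72 to 0.34, which holds changes of some size either way.

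**Figure D1:**
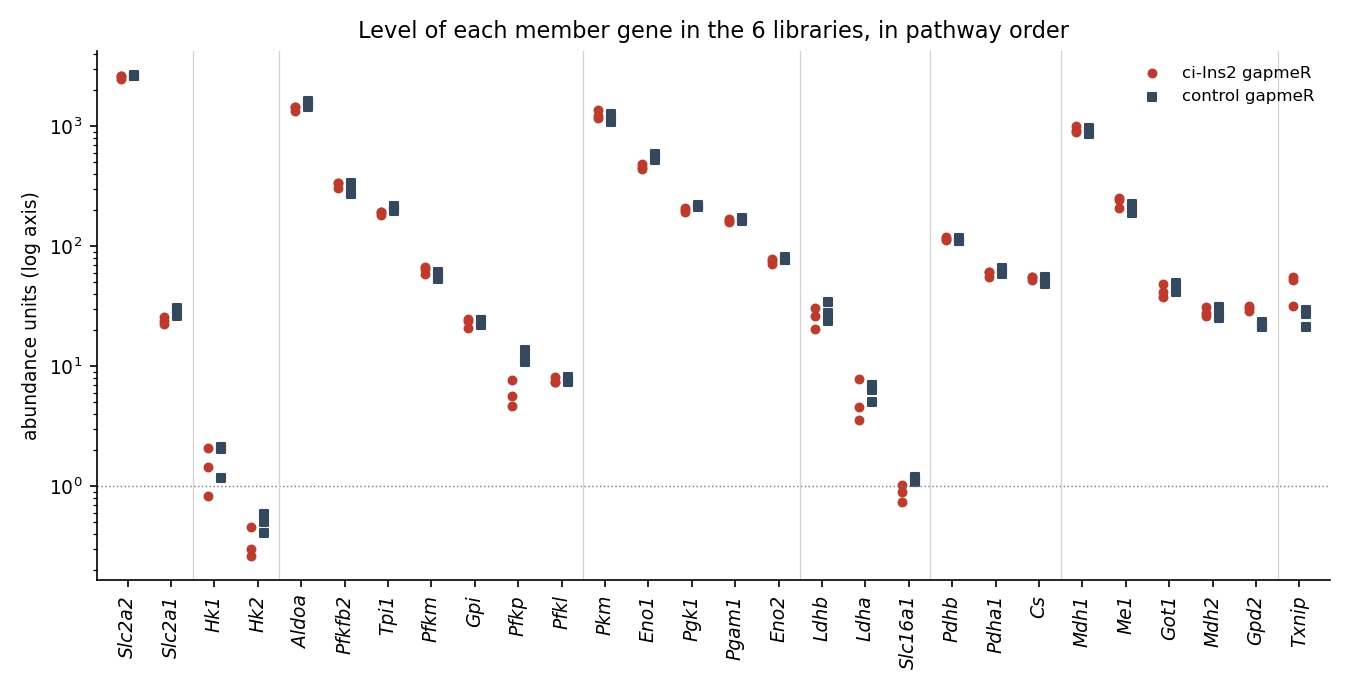
Level of each of the 28 member genes found, in abundance units on a log axis, in the 3 ci-Ins2 libraries (circles, left) and the 3 control libraries (squares, right), grouped by pathway step. The dotted line marks the filter at 1 unit. Slc2a2 lies highest, and Hk2 lies under the line in all 6 libraries.

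Upper glycolysis held the member with the largest fall. Pfkp, which encodes the platelet isoform of phosphofructokinase, the enzyme that commits sugar to glycolysis, had 4.65, 7.62 and 5.61 units in ci-Ins2 libraries, against 10.8, 13.6 and 11.5 in control libraries. No ci-Ins2 library reached the lowest control library. Pfkp fell by 0.92 on the log2 scale (SE 0.16), with an adjusted p of 0.0293 without the block and 0.00245 with it. The unblocked call was lost in 5 of the 6 fits without a library, with the highest adjusted p, 0.104, without ci-Ins2 replicate 3, and with no filter (0.0651), while the blocked call was kept in all 3 fits without an animal.

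The liver and muscle isoforms did not pass. Pfkl had 7.4 to 8.04 units in ci-Ins2 libraries and 7.37 to 8.1 in control libraries, and its sign turned without scaling. Pfkm, the most abundant of the 3, had 63.9, 58.6 and 67.5 units in ci-Ins2 libraries, against 53, 54.2 and 60.3 in control libraries. It was the higher one in ci-Ins2 in all 3 animals, with a fold change of 0.18 ± 0.07 (SE) and an adjusted p of 0.24, and 0.0537 with the block. Pfkp took 6.12%, 10.3% and 6.98% of the 3 isoforms' summed level in ci-Ins2 libraries, against 15.1%, 18.1% and 14.4% in control libraries. These shares did not overlap, and the exact two-sided permutation p of 0.1 is the smallest that 3 against 3 allows (0.3 adjusted over 6 families). The summed level of the 3 isoforms before scaling was 74.73 to 81.21 units in ci-Ins2 libraries and 72.4 to 78.32 in control libraries. These ranges overlapped, and the ci-Ins2 sum was the higher one in all 3 animals. The size factor was likewise the higher one in ci-Ins2 in each animal. After scaling, the ci-Ins2 sum was no longer the higher one in every animal.

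**Figure D2:**
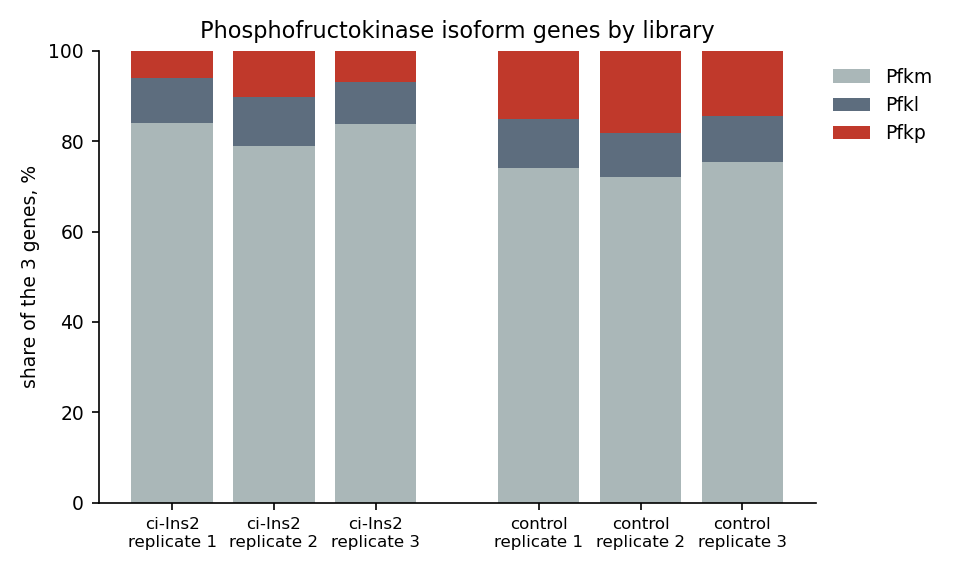
Share of the summed level of Pfkm, Pfkl and Pfkp held by each gene (%, stacked from 0) in each of the 3 ci-Ins2 libraries (left) and 3 control libraries (right). Pfkp holds 6.12% to 10.3% in the ci-Ins2 libraries and 14.4% to 18.1% in the control libraries.

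Aldoa, which encodes aldolase A, had 1329, 1452 and 1444.5 units in ci-Ins2 libraries, against 1449, 1622 and 1571 in control libraries. The groups overlapped by the margin of a few units. Its fold change was -0.13 ± 0.07 (SE), with an adjusted p of 0.307 without the block and 0.0467 with it. Of the 7 blocked calls this had the highest adjusted p. It was kept in 0 of 3 fits without an animal, it was lost without scaling (0.0934), and it was also lost (0.0532) with size factors taken over all gene names in place of those that pass the filter, an alternative added after the data were seen. Reads of Aldoa can also fall on a near-identical retrogene, which the sheet lists apart, and RSEM splits such reads.

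Of the other upper steps, Gpi (glucose-6-phosphate isomerase) had an interval of -0.21 to 0.17 and a sign that turned without scaling. Pfkfb2, which makes the activator fructose 2,6-bisphosphate, had 304 to 335 units in ci-Ins2 and 274 to 335 in control libraries, and its fold change of 0.13 had an interval of -0.08 to 0.34. Tpi1 (triosephosphate isomerase) had 182 to 194 units in ci-Ins2 and 195 to 214 in control libraries. Its groups did not overlap, and the adjusted p was 0.312, and 0.195 with the block.

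In lower glycolysis, Eno1, which encodes the widely expressed enolase, had 436, 487 and 456 units in ci-Ins2 libraries, against 524, 583 and 558 in control libraries. All 3 ci-Ins2 values lay under the control values. Its fold change was -0.27 ± 0.06 (SE), with an adjusted p of 0.068 without the block and 0.00711 with it. The blocked call was kept in 2 of 3 fits without an animal, and the adjusted p was 0.0574 without animal 1. The neuronal and endocrine enolase Eno2 differed less, with a fold change of -0.05 and an interval of -0.17 to 0.07. Eno2 held 14.1% ± 0.15 of the 2 enolases' level in ci-Ins2 libraries and 12.3% ± 0.37 in control libraries (SD, n = 3 each), without overlap and again at the exact permutation p of 0.1.

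Pkm, which encodes the pyruvate kinase of most tissues, had 1360.0, 1218 and 1174 units in ci-Ins2 libraries, against 1270.3, 1143 and 1075 in control libraries. It was the higher one in ci-Ins2 in all 3 animals while the groups overlapped, with a fold change of 0.11 ± 0.08 (SE) and an adjusted p of 0.537, and 0.0794 with the block. Pgk1 (phosphoglycerate kinase) had 192 to 206 units in ci-Ins2 and 210 to 219 in control libraries, without overlap, and an adjusted p of 0.249, and 0.0992 with the block. Pgam1 (phosphoglycerate mutase) had an interval of -0.15 to 0.07.

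**Figure D3:**
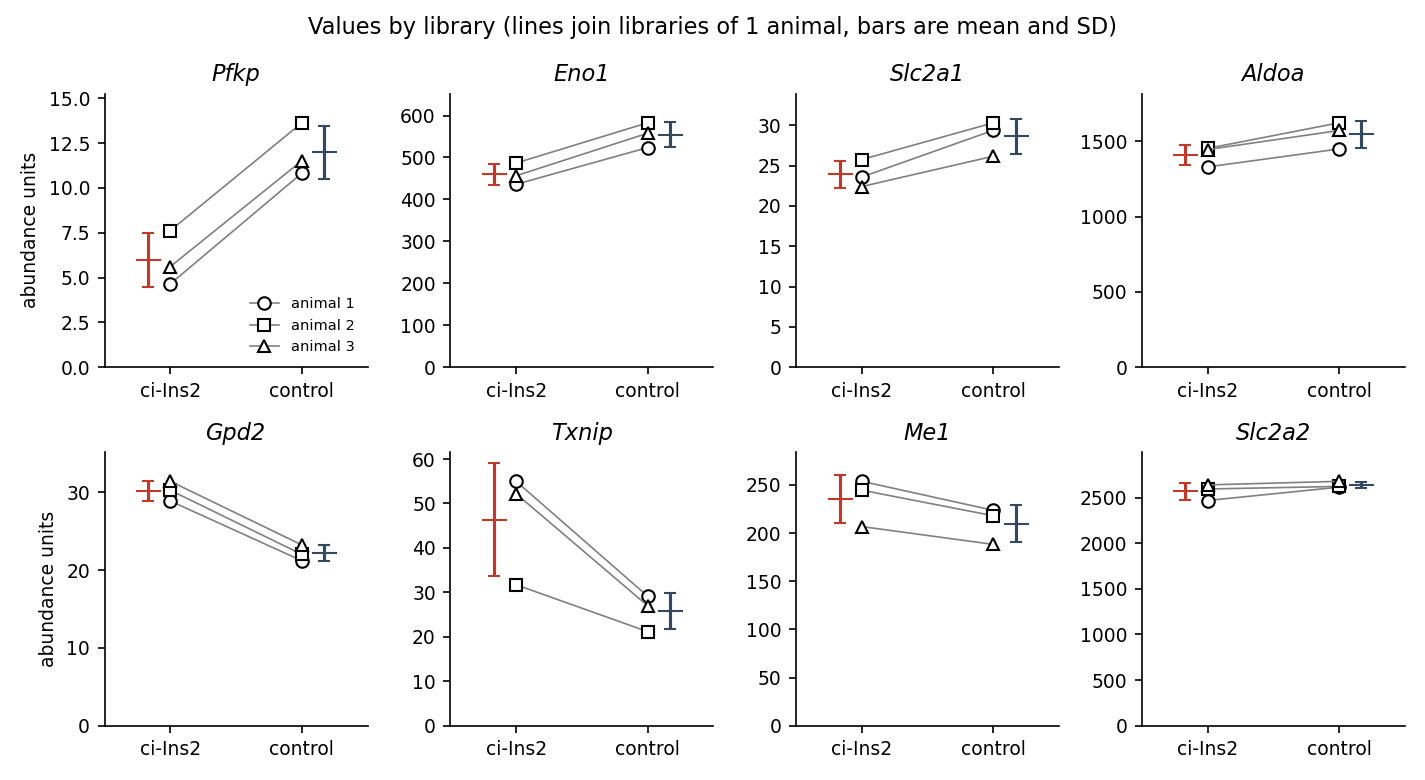
Abundance units in each library for the 7 members called with or without the animal as a block, and for Slc2a2 (no call), on axes that start at 0. ci-Ins2 libraries are on the left and control libraries on the right of each panel, a line joins the libraries of 1 animal, and the bars are the mean and SD of 3. All 3 lines slope the same way in each panel.

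Of the lactate genes, Ldha (lactate dehydrogenase A) and Slc16a1 were low and Ldhb was not. Ldha had 4.58, 7.75 and 3.56 units in ci-Ins2 libraries, against 6.38, 6.92 and 5 in control libraries. Its interval of -0.79 to 0.35 was the widest of the members, and the adjusted p was 0.665, and 0.268 with the block. Ldhb, which encodes the heart-type subunit, had 20.2 to 30.6 units in ci-Ins2 libraries and 23.6 to 34.3 in control libraries. It was lower in ci-Ins2 in all 3 animals, with an adjusted p of 0.692, and 0.0848 with the block. Slc16a1, the lactate and pyruvate carrier MCT1, was near the filter, with 0.736 to 1.02 units in ci-Ins2 and 1.09 to 1.19 in control libraries (adjusted p 0.323, and 0.202 with the block). Animal 2 had the highest and animal 3 the lowest Ldha and Hk1 in both groups, as did Slc2a1 and the summed stromal markers. The part of stromal cells in these levels was not tested.

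Pyruvate entry and citrate formation did not pass in either direction. Pdha1 and Pdhb encode subunits of pyruvate dehydrogenase, and Cs encodes citrate synthase. Their fold changes were -0.08, 0.04 and 0.06 in that order, with intervals that reached from -0.24 to 0.21 at the most. Pc, the pyruvate carboxylase that refills the citric acid cycle, had 175, 130 and 147 units in ci-Ins2 libraries, against 174, 137 and 146 in control libraries, and a fold change of -0.02.

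Among the redox shuttles, Gpd2 rose. Gpd2 encodes the mitochondrial glycerol phosphate dehydrogenase, which passes electrons of cytosolic NADH to the respiratory chain and is abundant in β-cells. It had 28.9, 30.3 and 31.4 units in ci-Ins2 libraries, against 21.2, 22 and 23.2 in control libraries. Each ci-Ins2 library stood above each control library. The fold change was 0.43 ± 0.06 (SE), or 1.35-fold, with an adjusted p of 0.0113 without the block and 0.00379 with it. It was the member whose call was kept in all 6 fits without a library (highest adjusted p 0.0491) and in all 3 blocked fits without an animal.

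The rise of Gpd2 was carried by its transcripts together. The main 2, which hold 46.4% and 44.2% of its level in ci-Ins2 and 43.8% and 46.7% in control libraries, had fold changes of 0.49 (adjusted p 0.0178) and 0.34 (0.0185). The third had 0.31, with an adjusted p of 0.0703, and 0.0356 with the block. Over the 44 member transcripts tested, 1 was lower and 2 higher, against 4.23% lower and 1.07% higher of 19074 transcripts. With the block, 6 were lower and 7 higher, against 10.8% and 5.99%.

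Me1, the cytosolic malic enzyme, which makes NADPH, had 254, 244.5 and 207 units in ci-Ins2 libraries, against 224, 218 and 188 in control libraries. The groups overlapped and each animal's ci-Ins2 library was the higher of its pair. The fold change was 0.16 ± 0.10 (SE), with an adjusted p of 0.42 without the block and 0.0321 with it, and 1 of 3 fits without an animal kept the blocked call (0.18 without animal 1). Mdh1, the cytosolic malate dehydrogenase of the malate-aspartate shuttle, had 888, 935 and 1003 units in ci-Ins2 libraries, against 854, 965 and 939 in control libraries, which overlapped (interval -0.13 to 0.20). Got1 and Mdh2, which act in the same shuttle, had fold changes of -0.09 and 0.03.

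Txnip encodes thioredoxin-interacting protein, whose transcription is known to follow glucose. It had 55, 31.7 and 52.2 units in ci-Ins2 libraries, against 29.1, 21.2 and 27 in control libraries. The lowest ci-Ins2 library, of animal 2, was above all control libraries. The fold change was 0.79 ± 0.22 (SE), with an adjusted p of 0.107 without the block and 0.00476 with it, and the blocked call was kept in all 3 fits without an animal. Arrdc4, a related arrestin gene that also follows glucose, had an adjusted p of 0.517 without the block and 0.0217 with it, a blocked call that none of the fits without an animal kept. It had 44.1, 29.7 and 41.1 units in ci-Ins2 libraries, against 36.5, 25.9 and 34.5 in control libraries. Arrdc4 was the only call, with the block, of 11 glucose-responsive regulators tested, whose median fold change was 0.006, with 5 below and 6 above 0.

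**Figure D4:**
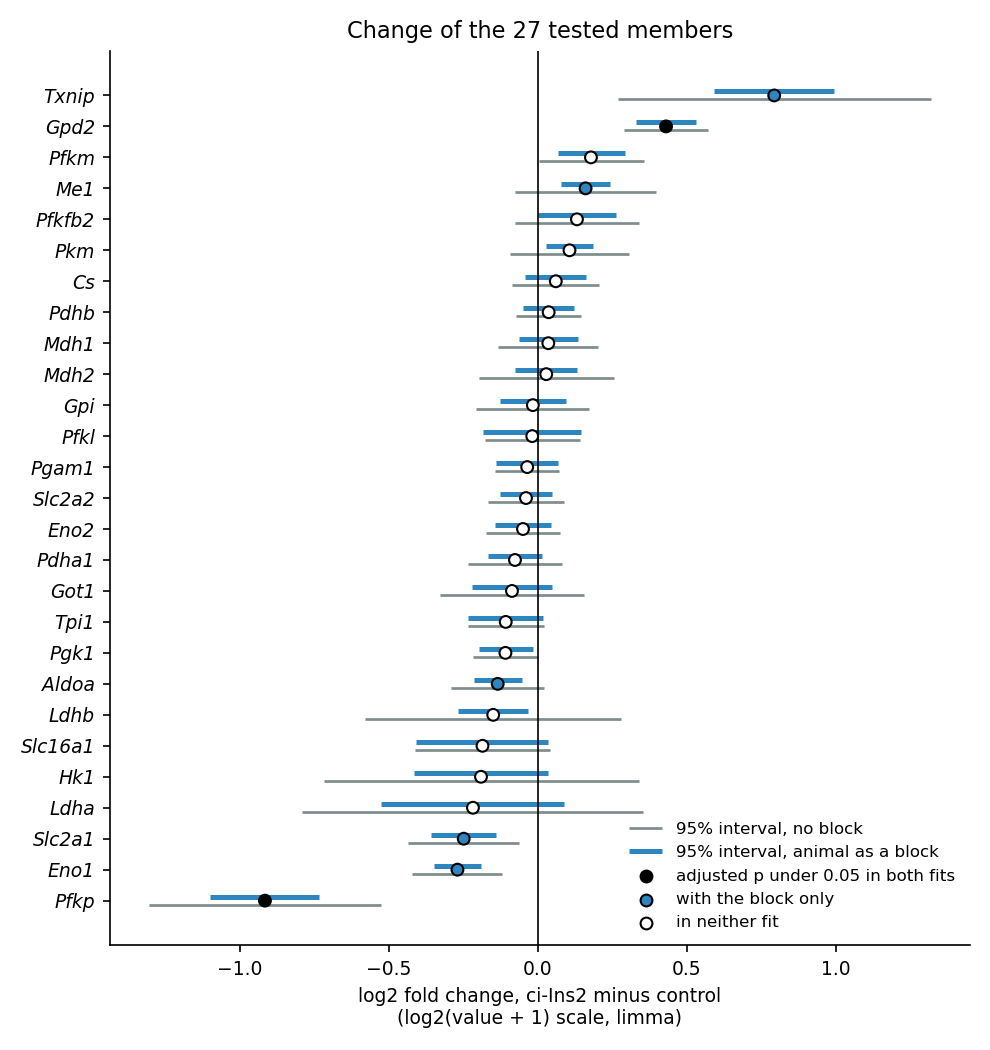
Fold change of each of the 27 tested members (ci-Ins2 minus control, log2(value + 1) scale), ordered by size, with the 95% intervals without the block (thin) and with the animal as a block (thick). Filled points mark adjusted p under 0.05, black in both fits and blue with the block only. Pfkp lies at -0.92 and Gpd2 at 0.43 (both black), and Txnip at 0.79 (blue).

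For most members the data bound the change on the log2(value + 1) scale, which understates changes of low genes. In 21 the interval without the block lay inside -0.5 to 0.5, and in 6 it reached beyond. Slc16a1, near the filter, was among the 21, and its fold change of -0.19 was -0.34 with a pseudocount of 0.1. The replicate numbers, which mark the animals, differed in 3 members (Ldhb, Me1 and Txnip), by a moderated F test in limma, 11.1% against 7.03% of all genes. Anything else that varied with the replicate number cannot be told apart from the animal.

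The wider pathway was read from 8 lists that hold 120 genes, of which 104 were tested. In limma 0 were lower and 3 higher (10 and 11 at an unadjusted p under 0.05), 2.88% against the 4.52% of all genes, and with the block 10 were lower and 11 higher, 20.2% against 15.5%. The median fold change over the lists was 0.019. Gfpt2, of the hexosamine pathway, had 80.2, 77.3 and 78.3 units in ci-Ins2 libraries, against 60.8, 61.2 and 64.1 in control libraries (adjusted p 0.0103, kept in all 6 fits without a library). Aldoc, the brain aldolase, had 10.9, 10.4 and 11 units in ci-Ins2 libraries, against 7.92, 5.41 and 6.06 in control libraries (0.0315, kept in 1 of the 6, highest 0.126). Ndrg1, a hypoxia-inducible gene, had 569, 584 and 556 units in ci-Ins2 libraries, against 467, 485 and 421 in control libraries (0.0418, kept in none of the 6, highest 0.13).

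By list, 1 of 19 other glycolysis and gluconeogenesis genes was higher without the block, and with it 2 were lower and 3 higher. Pfkfb3, an inducible relative of Pfkfb2, and Adpgk, an ADP-dependent sugar kinase, were the lower ones, and Aldoc was among the higher. With the block, Pdk3 was lower and Pdk4 higher of 12 genes of pyruvate import and pyruvate dehydrogenase regulation, and Suclg2 lower and Idh1 higher of 16 of the citric acid cycle. Of 13 other shuttle and anaplerosis genes, Me2 (mitochondrial malic enzyme) and Slc25a12 (an aspartate-glutamate carrier) were lower with the block. Slc25a12 had 27.1, 27.7 and 29.9 units in ci-Ins2 libraries, against 36.6, 33.5 and 41 in control libraries, without overlap (adjusted p 0.056, and 0.0109 with the block). Of 5 lactate genes, Ldhd, a D-lactate dehydrogenase, was higher with the block. Of 15 hypoxia-inducible genes, 4 were lower with the block, among them Hif1a, Vegfa and Ddit4, and Ndrg1 was higher, so the list did not move one way. Rpia and Taldo1 of the pentose phosphate pathway were higher with the block, 2 of the 3 called of 14. Of the genes of these lists called with the block, Aldoc, Gfpt2, Ndrg1 and Ldhd were kept in all 3 fits without an animal.

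Promoters were searched for letters that known regulators of these genes read, in windows of 300 bases from RefSeq (build GRCr8), which hold 250 bases before and 50 after each annotated start. A window was given for 27 of the 30 members, all but Txnip, Pgk1 and Pcx. The core ACGTG of hypoxia response elements, on either strand, was in 12 members, or 38.7% of their 31 windows, against 19.3% of 33469 windows. The E-box CACGTG, which contains that core on both strands, was in 3 members, 9.68% of windows against 6.42%. The carbohydrate response layout, a pair of E-box-like parts CACGNG held 5 bases apart, was in 0 of the 31 member windows, which do not include Txnip, and in 0.0359% of all. Of the 7 members called with the block, Eno1, Slc2a1 and Aldoa hold the core, Pfkp, Gpd2 and Me1 do not, and Txnip had no window. Among all 27 members with a window, 12 hold the core, and a link between core and calls was not tested. The 33469 windows were not limited to genes tested here. A match is a description of letters. The windows of the members called without the block, and that of Slc2a1, whose single match starts at -51 from the start site, are printed with the core in capitals.
Pfkp (chr17:68639563-68639862, plus strand): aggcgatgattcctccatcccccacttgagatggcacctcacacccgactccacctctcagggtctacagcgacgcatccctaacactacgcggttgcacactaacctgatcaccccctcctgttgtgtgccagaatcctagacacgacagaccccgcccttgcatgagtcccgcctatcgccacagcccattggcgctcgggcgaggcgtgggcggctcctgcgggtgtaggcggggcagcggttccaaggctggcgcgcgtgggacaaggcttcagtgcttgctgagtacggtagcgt
Gpd2 (chr3:62211403-62211702, plus strand): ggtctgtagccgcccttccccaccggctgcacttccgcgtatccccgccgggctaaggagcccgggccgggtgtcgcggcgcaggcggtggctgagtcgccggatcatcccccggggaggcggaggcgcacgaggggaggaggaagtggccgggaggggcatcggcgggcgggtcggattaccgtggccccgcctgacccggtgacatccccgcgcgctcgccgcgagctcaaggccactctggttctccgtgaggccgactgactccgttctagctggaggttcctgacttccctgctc
Slc2a1 (chr5:138002272-138002571, plus strand): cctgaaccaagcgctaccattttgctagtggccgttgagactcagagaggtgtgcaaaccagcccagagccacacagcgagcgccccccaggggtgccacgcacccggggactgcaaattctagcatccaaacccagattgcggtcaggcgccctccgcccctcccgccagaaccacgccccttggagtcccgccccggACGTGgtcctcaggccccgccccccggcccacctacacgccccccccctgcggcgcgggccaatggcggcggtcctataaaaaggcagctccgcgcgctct

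In a separate annotation of mouse islet circular RNAs, 9 of 15925 entries had a member as host gene. Gpd2 hosted 6 of them, Pfkfb2 hosted 2 and Slc2a2 hosted 1, and 27 members hosted none. The most abundant, circ_00677 of Gpd2, had an authors' mean of 44.3 normalized junction reads and ranked 660, against a median of 2.99 over all entries. This mean has no replicate values here, and the annotation is of mouse, while the libraries are of rat.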

How the data were processed

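RNA of 6 rat islet cell libraries was sequenced from stranded mRNA preparations. Per the methods, the authors mapped reads with STAR 2.5.3a and estimated transcript abundance with RSEM 1.3.0 on ENSEMBL annotation of rn6. The deposited values are a relative signal for each transcript, summing in each library to 10 times what TPM would. No source names the unit. Since this is not read counts, count models were left out and depth is unknown. Tables of the authors' own fold changes and pathways, made with HISAT2 2.1.0, HTSeq and DESeq2 1.12.4, were not used. The authors' mean of the mouse circRNA table is a normalized signal, and 6 columns of single samples of another study were not used.

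Values were divided by 10, summed by gene name, kept at 1 or more in 3 or more libraries (13927 names), and divided by median-of-ratios size factors of the names kept (0.962 to 1.035). That set was chosen after the values had been seen, when factors over all gene names had been run first, and both are given. Differences (ci-Ins2 minus control) of log2(value + 1) were fitted in limma 3.58.1 (R 4.3.3), using a mean-variance trend, and p-values were adjusted by Benjamini-Hochberg across every gene tested. This scale understates changes of low genes. No block entered this fit because none is named in the methods. The study's reporting summary says that groups of a replicate share an animal, so the animal was added as a block in a parallel fit. Deviations from group means correlated at 0.462, 0.493 and 0.419 within a number and at -0.157 to -0.266 between numbers. With deviations taken from means of 3 libraries, positive values within numbers make those between numbers negative on average. The negative values are therefore not further evidence of pairing. Shares of isoforms were tested by exact permutation without pairing by animal. The fit without the block was tried on simulated data that held no animal effect, and the blocked fit was not.

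Members, gene lists and alternatives were chosen with earlier results of these data known. Named are all members, with every library given for those called in either fit and the 5 most abundant, and at most 4 called genes per pathway list, those with the smallest adjusted p, except for a gene that is not reported here. Alternatives were the block, other pseudocounts, filters, scalings and thresholds, no trend, the most abundant transcript per gene and each library left out. The block without each animal, the block without scaling and size factors over all names were added after the data were seen. In fits without a library the group of 2 shares the pooled spread. Python 3.11.15 was used for tables and matplotlib 3.10.9 for plots.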

Additional observations from a re-analysis of the deposited data

How the results depend on the processing

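Of 564 values of single members under the alternatives, 533 stayed on their side of the threshold, 6 lost a call, 25 gained one and 0 turned sign with a call. In 22 values of 8 members that were called in neither fit the sign turned. All 6 lost calls were of Pfkp, without a filter (adjusted p 0.0651) and without each library but ci-Ins2 replicate 2 (0.0681 to 0.104). The animal as a replicate block gave 4 members lower and 3 higher, against 1 and 1 without it, 6 and 7 of their transcripts, against 1 and 2, and 1428 and 729 of all genes, against 488 and 141. Under the block, size factors over all gene names gave 3 members lower and 3 higher (1413 and 726 genes), with Aldoa lost at 0.0532, and no scaling gave 3 and 5 (1122 and 1422 genes). The block without 1 animal gave 1 to 3 members lower and 2 to 3 higher, and over all genes 570 lower and 155 higher without animal 1, 900 and 292 without animal 2, and 936 and 368 without animal 3. Without the block, leaving out 1 library gave 0 to 1 members lower and 1 to 2 higher, and 187 to 309 genes lower and 35 to 73 higher. No filter gave 0 members lower and 89 genes higher. The total without the 22 most abundant genes gave 2 members lower, Eno1 added. An adjusted p under 0.01 gave 0 members lower and 0 higher (194 and 23 genes), and one under 0.1 gave 2 members lower (771 and 344 genes). A filter at 5 gave 2 member transcripts lower. The cause of these shifts was not tested. Without counts, the limit that depth sets on Hk1, Hk2, Ldha and Slc16a1 is unknown.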
